A study of Mus musculus with 9 samples.

Results

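The Bcl2 family genes are 10 genes of the intrinsic apoptosis pathway, Bcl2, Bcl2l1, Mcl1, Bax, Bak1, Bbc3, Pmaip1, Bcl2l11, Bid and Bad, taken by gene symbol out of 46316 symbols in a count table of mouse pancreatic islets. Each gene was represented by its transcript row with the highest total, and all 10 passed the filter on low counts. Islets are the clusters of endocrine cells, mostly insulin-secreting beta cells, of the pancreas. RNA was sequenced from 3 groups of 3 libraries: untreated db/+ mice, untreated db/db mice, and db/db mice on combined imeglimin and metformin. The db allele is a mutation of the leptin receptor gene, which the db/+ controls carry on 1 chromosome and the obese, diabetic db/db mice on both. Imeglimin and metformin are oral glucose-lowering drugs. No group received a single drug, and the sources used here do not give doses, duration, age or any pooling of animals.

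Bcl2 family proteins decide whether the outer membrane of mitochondria is opened, which releases cytochrome c and starts the caspases. Bcl2, Bcl2l1 (Bcl-xL) and Mcl1 hold the effectors Bax and Bak1 in check, while the BH3-only proteins Bbc3 (PUMA), Pmaip1 (Noxa), Bcl2l11 (Bim), Bid and Bad bind the guardians or activate the effectors. In beta cells this balance is known to respond to glucose, to endoplasmic reticulum stress and to cytokines. Much of it is set on proteins by phosphorylation, cleavage and turnover, which RNA levels do not show.

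The 9 libraries held between 10292668 and 15281813 gene counts. Levels are read counts scaled to library size with TMM factors (CPM), fold changes are log2 values ± standard errors, and adjusted p-values come from edgeR's quasi-likelihood test over 16761 genes with Benjamini-Hochberg adjustment, called under 0.05. Whether libraries within a group stem from different animals is not stated in the labels, and the p-values therefore reflect variation among these samples alone, part of which may be technical. The markers of beta cells were present in all 9 libraries, with summed levels of 238400 to 429400 CPM in db/+, 122300 to 198200 in untreated db/db and 168700 to 192200 in treated db/db islets. Lymphocyte markers summed to 11.1 to 16.2 CPM in db/+ islets, where 4 of the 12 (Cd3d, Cd3g, Cd8a and Ms4a1) were at 0. In untreated db/db islets their sums were 328.9, 51.5 and 36.0 CPM for replicates 1 to 3, and with treatment 3.61 to 6.74, where Cd3g and Cd8a were at 0. Cd79a alone was at 9.72 ± 2.70 CPM (SD, n = 3) in db/+ and 0.47 ± 0.14 in treated db/db islets. It was the 1 marker of the 12 called lower in treated against db/+ islets, with 0 called higher and 11 not called. Against db/+ islets, 10 of the 12 were called higher without treatment. Acinar markers summed to 6.52 to 106 CPM in db/+, 212 to 1832 in untreated and 93.8 to 318.5 in treated db/db islets. Of 8 beta cell markers 7 were called lower in untreated db/db islets, of 6 endothelial markers 5 were lower, and of 5 stellate cell markers 4 were higher; the part of these cell types in the member results was not tested. Reads also lay differently along genes in the db/+ libraries. In 356 genes of the table, a transcript row without the last exon of the gene's highest row held a median of 22.7% to 24.3% of that row's counts in db/+ islets, whereas the 6 db/db libraries gave 41.4% to 45.5%. This difference in coverage cannot be told apart from genotype, and its part in the comparisons with db/+ islets was not tested.

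**Figure D1:**
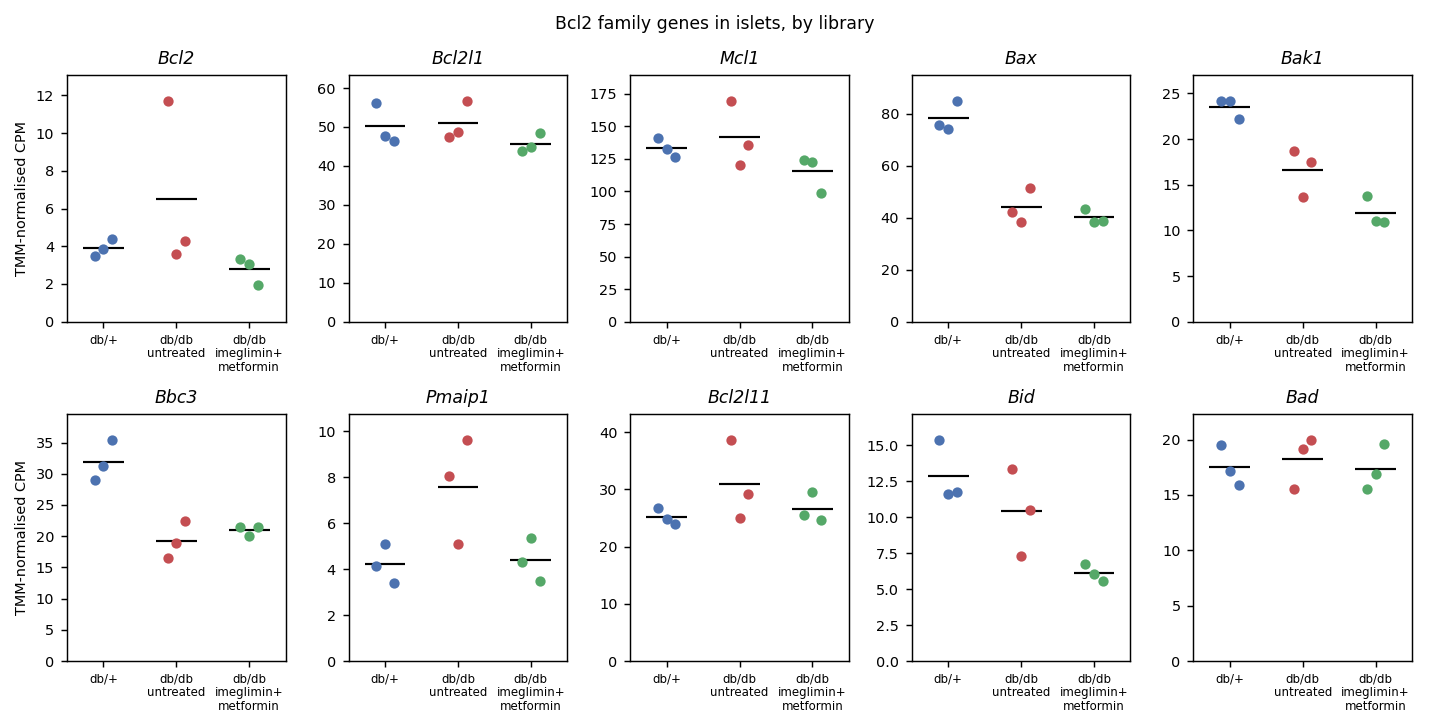
TMM-normalised CPM (y axes, from 0) of the 10 Bcl2 family genes in each of 9 islet libraries; points are libraries, bars are group means of 3. Bax lay between 74.1 and 84.9 CPM in db/+ islets and between 38.3 and 51.4 in the 6 db/db libraries, and 1 untreated db/db library held Bcl2 at 11.7 CPM.

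Both effector genes were lower in db/db islets, with or without treatment. Bax, whose protein forms pores in the outer mitochondrial membrane, lay at 75.8, 74.1 and 84.9 CPM in db/+ islets, at 42.2, 38.5 and 51.4 in untreated db/db islets, and at 43.2, 38.3 and 38.8 in treated ones. Every db/db library was below every db/+ library, and the untreated and treated libraries overlapped. Bax fell by 0.83 ± 0.11 on the log2 scale in untreated db/db islets (adjusted p = 3.86e-05) and by 0.96 ± 0.11 in treated ones (adjusted p = 9.23e-06). Both comparisons use the same db/+ libraries. Bak1, the second effector, which is anchored in the mitochondrial membrane, lay at 24.1, 24.2 and 22.2 CPM in db/+, 18.6, 13.7 and 17.5 in untreated and 13.8, 11.1 and 10.97 in treated db/db islets. Here too the db/+ libraries were above all others. Bak1 fell by 0.50 ± 0.14 in untreated (adjusted p = 0.00649) and by 0.98 ± 0.14 in treated db/db islets (adjusted p = 4.92e-05). Without db/+ replicate 1 the untreated difference was -0.39 and no longer called (adjusted p = 0.0555; 0.00353 to 0.0555 over 18 alternatives). In each of Bax and Bak1 the deposited transcript rows held nearly the same counts, the lowest with 99.5% and 99.6% of the highest total, so the choice of row does not bear on them.

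The windows around the start sites of Bax, Bak1 and the BH3-only gene Bbc3 are shown, the 3 members called lower than in db/+ islets in both db/db groups. Of all genes, 32.0% were called lower in untreated and 32.5% in treated db/db islets. They run from 250 bases before to 50 after a RefSeq start site on build GRCm38.p6, read 5′ to 3′ on the gene's strand. Capitals mark matches, on either strand, to the p53 half-site, the FOXO core TGTTTAC, the E-box CACGTG or the cAMP response element TGACGTCA. Of the Bbc3 windows, the second of 3 is printed, the only one of them with a FOXO core.
Bax (chr7:45466849-45467148, minus strand): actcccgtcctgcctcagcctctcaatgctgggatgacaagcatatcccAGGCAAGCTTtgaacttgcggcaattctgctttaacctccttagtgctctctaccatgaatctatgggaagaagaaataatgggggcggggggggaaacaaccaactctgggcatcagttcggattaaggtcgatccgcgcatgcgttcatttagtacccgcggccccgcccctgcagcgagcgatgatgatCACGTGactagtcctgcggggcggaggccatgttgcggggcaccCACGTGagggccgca
Bak1 (chr17:27028578-27028877, minus strand): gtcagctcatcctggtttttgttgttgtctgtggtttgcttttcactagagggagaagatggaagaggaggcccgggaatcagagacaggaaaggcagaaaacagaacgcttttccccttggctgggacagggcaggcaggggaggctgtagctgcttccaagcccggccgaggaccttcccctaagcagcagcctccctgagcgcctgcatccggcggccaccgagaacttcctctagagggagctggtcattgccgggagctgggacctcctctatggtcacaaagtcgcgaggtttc
Bbc3 (chr7:16310011-16310310, plus strand): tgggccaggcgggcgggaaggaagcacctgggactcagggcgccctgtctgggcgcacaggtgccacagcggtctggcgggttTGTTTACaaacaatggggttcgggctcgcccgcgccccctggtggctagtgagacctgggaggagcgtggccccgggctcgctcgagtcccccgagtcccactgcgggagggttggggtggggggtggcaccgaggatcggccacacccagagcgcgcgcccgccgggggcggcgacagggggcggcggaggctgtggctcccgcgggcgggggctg
The Bax window held a p53 half-site starting at position -201 from the start site and E-boxes at -9 and 36. A FOXO core stood at -167 in the Bbc3 window, and the third Bbc3 window, not printed, held an E-box at -64. None of these motifs was found in the Bak1 window or in the first Bbc3 window, which is not printed. Among all 32851 windows of that table, 8.36% held a p53 half-site, 7.15% an E-box, 3.65% a FOXO core and 1.79% a cAMP response element. These shares are per window, and a gene with 3 windows such as Bbc3 has more room for a match. A FOXO core also stood at -227 in the first Bcl2l11 window. These are matches of letters, and no binding was measured.

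Of the BH3-only genes, Bbc3 was lower in db/db islets, Pmaip1 was higher in untreated db/db islets, and Bid was lower in treated db/db islets, each against db/+. Bbc3 encodes PUMA, a BH3-only protein induced by p53 that binds all the guardians. Its level was 29.0, 31.3 and 35.4 CPM in db/+, 16.4, 19.0 and 22.5 in untreated and 21.4, 20.01 and 21.5 in treated db/db islets. All 6 db/db libraries lay below the db/+ libraries, with treated and untreated values interleaved. Bbc3 fell by 0.72 ± 0.12 in untreated (adjusted p = 0.000254) and by 0.60 ± 0.12 in treated db/db islets (adjusted p = 0.000861).

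Pmaip1 encodes Noxa, which binds Mcl1 and promotes its removal. It lay at 4.16, 5.10 and 3.38 CPM in db/+ islets, at 8.04, 5.10 and 9.61 in untreated db/db islets and at 4.30, 5.36 and 3.48 in treated ones. Untreated replicate 2 exceeded the highest db/+ library by less than 0.1 CPM, while the other two stood well above. Pmaip1 rose by 0.85 ± 0.27 in untreated db/db islets (adjusted p = 0.0147) on raw counts of 34 to 50 per db/+ library and 81 to 135 per untreated db/db library. It no longer passed when db/+ replicate 3 was left out (0.75, adjusted p = 0.0553) or without untreated replicate 3 (0.65, adjusted p = 0.0701), and the adjusted p ran from 0.00228 to 0.0701 over the alternatives. In treated against db/+ islets the log2 difference was 0.06, with a 95% interval of -0.53 to 0.65 and an adjusted p = 0.861.

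Bid is cleaved by caspase 8 and carries the death receptor signal to mitochondria. It lay at 15.3, 11.6 and 11.7 CPM in db/+, 13.4, 7.31 and 10.5 in untreated and 6.77, 6.08 and 5.55 in treated db/db islets. The treated libraries were below all others, and the untreated and db/+ libraries overlapped. Bid fell by 1.07 ± 0.21 in treated against db/+ islets (adjusted p = 0.000708), while untreated db/db against db/+ islets gave -0.31 ± 0.21 (adjusted p = 0.205). That untreated value was -0.52 and called without untreated replicate 1 (adjusted p = 0.0414; 0.0414 to 0.8 over the alternatives). Untreated replicate 1 had the highest sums of lymphocyte, acinar, macrophage and dividing-cell markers and the lowest of beta cell markers, whose part in the Bid level was not tested.

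Bcl2l11 and Bad were not called in any comparison. Bcl2l11, the FOXO-regulated activator Bim, lay at 24.0 to 26.7 CPM in db/+ islets, at 38.6, 25.0 and 29.2 in untreated and 24.6 to 29.5 in treated db/db islets. Its log2 difference in untreated db/db islets was 0.30 ± 0.15 (adjusted p = 0.0912), with untreated replicate 1 above the rest. It was 0.12 without that library (adjusted p = 0.428) and 0.44 without untreated replicate 2, where the call was made (adjusted p = 0.0163; 0.0163 to 0.567 over the alternatives). Bad, which insulin signalling holds inactive by phosphorylation, ranged from 15.5 to 19.9 CPM over all 9 libraries with the 3 groups overlapping. Its 95% intervals were -0.24 to 0.35 for untreated and -0.31 to 0.28 for treated against db/+ islets on the log2 scale, which leaves room for changes of about that size.

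Among the guardians, none of Bcl2, Bcl2l1 and Mcl1 was called against db/+ islets by edgeR, DESeq2 or voom, nor by edgeR at an unadjusted p under 0.05. Bcl2, the founding member and abundant in lymphocytes, lay at 3.46, 3.87 and 4.37 CPM in db/+, at 11.7, 3.59 and 4.27 in untreated and at 3.31, 3.07 and 1.94 in treated db/db islets. Untreated replicate 1 alone was high, and the other two untreated libraries fell within or next to the db/+ range. The log2 difference of 0.73 ± 0.42 between untreated db/db and db/+ islets (adjusted p = 0.147) became 0.02 ± 0.28 without that library (adjusted p = 0.956) and 1.04 without untreated replicate 2, where it was called (adjusted p = 0.0344), the lowest and highest p over the alternatives. The same library had the highest sum of lymphocyte (328.9 CPM), acinar (1832), macrophage (262) and dividing-cell markers (61.2), whose part in the Bcl2 level was not tested. In bulk libraries, fewer cells of a type and less RNA per cell cannot be told apart.

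Bcl2l1, the guardian Bcl-xL on which beta cells are known to rely under stress, lay between 46.5 and 56.2 CPM in db/+, 47.4 and 56.7 in untreated and 43.7 and 48.4 in treated db/db islets. The groups overlapped, with log2 differences of 0.02 (95% interval -0.20 to 0.25) and -0.13 (-0.36 to 0.09) against db/+ islets. Mcl1, a guardian with a short-lived protein, was at 126 to 141 CPM in db/+, 169, 120 and 136 in untreated and 124, 123 and 98.9 in treated db/db islets. Its log2 difference was 0.09 (95% interval -0.20 to 0.37) in untreated and -0.21 (-0.50 to 0.08) in treated db/db islets.

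**Figure D2:**
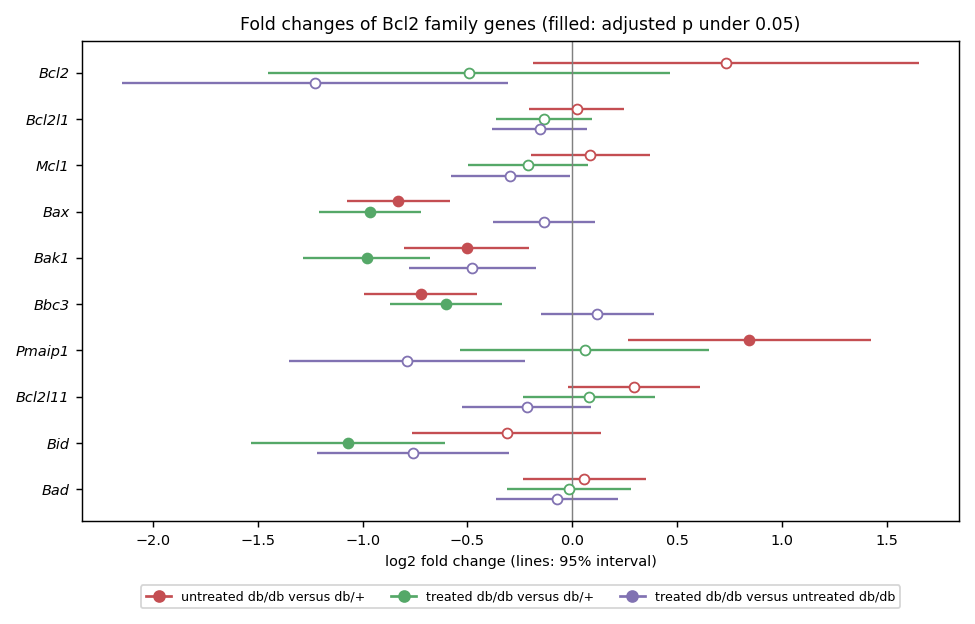
Log2 fold changes (x axis) of the 10 genes in 3 comparisons, with 95% intervals as lines; filled points passed an adjusted p under 0.05. Bax, Bak1 and Bbc3 lie below 0 with filled points in both comparisons with db/+ islets, Pmaip1 is filled above 0 in the untreated one, and no point is filled for treated against untreated db/db islets.

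The transcript rows of Bcl2l1 and Mcl1 did not share 1 pattern over the groups. Bcl2l1 transcript variant 4, a row of 1450 bases, held counts of 87, 63 and 78 in db/+ islets, of 251, 284 and 301 in untreated db/db islets and of 262, 284 and 310 in treated ones. That was 15.2% ± 1.6 (SD, n = 3) of the highest Bcl2l1 row in db/+, 37.8% ± 0.92 in untreated and 41.7% ± 0.52 in treated db/db islets. Variant 6, a row of 1662 bases, was ordered the other way, from 89.5% ± 0.34 in db/+ to 73.6% ± 1.5 in untreated and 69.7% ± 1.0 in treated islets, with no overlap between the db/+ and db/db libraries. Mcl1 variant X1 went from 8.86% ± 0.37 of its highest row in db/+ to 17.0% ± 0.093 in untreated and 16.4% ± 0.24 in treated islets, and variant X2 from 12.6% ± 1.9 to 23.0% ± 0.91 and 22.9% ± 1.1. When each gene was represented by its row with the lowest total, Bcl2l1 was called higher in untreated db/db islets by 1.26 (adjusted p = 4.81e-06) and Mcl1 by 0.95 (adjusted p = 0.00015). Bax, Bak1, Bbc3 and Pmaip1 kept their calls in that comparison. Bcl2l1 variant 4 and both Mcl1 rows rose in share, as did the median over 356 genes of rows without the last exon, while Bcl2l1 variant 6 fell. In 23 genes with a partial row that kept the last exon, the median share was 65.8% to 70.8% in db/+ and 55.5% to 58.6% in db/db libraries. In 18 genes between these classes it was 45.55% to 46.52% and 59.3% to 60.89%. Bcl2l1 variant 6, with a total of 4406 against 5776 for the highest row, lies above the 70% limit for these partial rows and is in none of these sets. Which of the Bcl2l1 and Mcl1 rows lack the last exon was not determined, and the part of the coverage difference in them was not tested. Among the other members, Bbc3 variant X6 held 86.8% ± 1.0 of the highest Bbc3 row in db/+, 78.6% ± 3.7 in untreated and 77.2% ± 2.0 in treated db/db islets, with every db/db library below the db/+ libraries. The partial rows of Bcl2l11 overlapped between groups, variant X2 with 21.8% ± 7.3 in db/+ and 15.0% ± 2.6 in untreated db/db islets and variant 5 with 15.2% ± 5.4 and 15.3% ± 1.9.

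**Figure D3:**
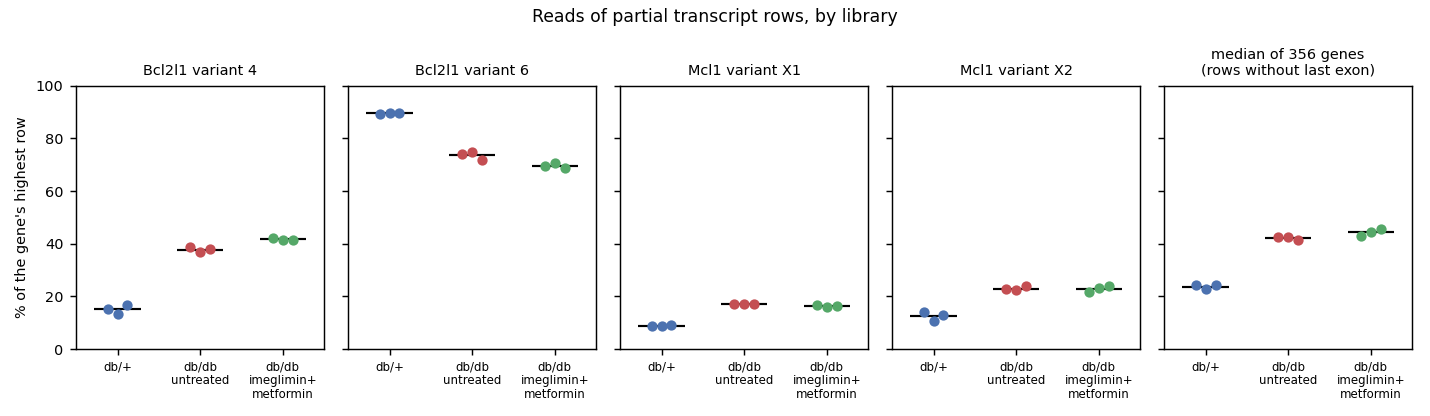
Counts of a transcript row as a percentage of the gene's highest row (y axis, 0 to 100) in each library; points are libraries and bars group means of 3. Bcl2l1 variant 4 and both Mcl1 rows stand higher in the 6 db/db libraries than in db/+, Bcl2l1 variant 6 stands lower, and the median of 356 genes in rows without the last exon lies near 24% in db/+ and above 41% in db/db libraries.

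In total, untreated db/db against db/+ islets gave 1 member higher, Pmaip1, and 3 lower, Bax, Bak1 and Bbc3, with 6 not called. Of all genes tested, 63.2% were called in this comparison, 31.3% higher and 32.0% lower, which stands beside 4 of 10 members; the difference between these shares was not tested. The members' median absolute log2 difference was 0.41, against 0.63 over all genes, and their median difference was 0.04 against 0.02. Treated db/db against db/+ islets gave 4 members lower, Bax, Bak1, Bbc3 and Bid, and 6 not called, where 65.3% of all genes were called, 32.8% higher and 32.5% lower. The median difference was -0.35 over the members and 0.02 over all genes. DESeq2 and voom called these same genes in both comparisons, where DESeq2 called 61.3% and 63.5% of all genes and voom 62.2% and 64.9%.

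The treatment comparison addresses whether imeglimin with metformin changed these genes within db/db islets. By edgeR no member was called, that is 0 of 10, with 5 lower at an unadjusted p under 0.05. Of all genes tested, 0.179% were called, 0.00597% higher and 0.173% lower. DESeq2 called 1 member, Bid, where it called 3.82% of all genes (627), and voom called 0 members and 0.0597% of all genes. Over the alternatives the number of genes called in this comparison ran from 0 to 627. The 5 members under 0.05 unadjusted were Bid, Bak1, Pmaip1, Bcl2 and Mcl1. Bid differed by -0.76 ± 0.21 (adjusted p = 0.122; by DESeq2 -0.80, adjusted p = 0.0412), with all 3 treated libraries below the untreated ones. Bak1 differed by -0.48 ± 0.14 (adjusted p = 0.132), with the highest treated library just above the lowest untreated one. Pmaip1 differed by -0.79 ± 0.26 (adjusted p = 0.164), and 2 of 3 treated libraries were below the lowest untreated one. Bcl2 differed by -1.23 ± 0.42 (adjusted p = 0.185) and by -0.50 without untreated replicate 1 (adjusted p = 0.558). Mcl1 differed by -0.30 ± 0.13 (adjusted p = 0.269), or by -0.15 without that library. Without untreated replicate 2, Bid (-0.96, adjusted p = 0.0317) and Bak1 (-0.60, adjusted p = 0.0436) were called; over the alternatives their adjusted p reached 0.421 and 0.448. The remaining estimates lay between -0.22 for Bcl2l11 and 0.12 for Bbc3. Of the 10 estimates 9 were negative, while the median over all genes was 0.07. The share of all genes under 0.05 unadjusted, or with a negative estimate, is not given here. Neither the 5 nor the 9 can therefore be read as a result about the members.

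Ratios between a pro- and an anti-apoptotic member need no scaling between libraries, and were set out as a description with no test. The log2 ratio of Bax to Bcl2l1 counts was 0.43, 0.64 and 0.87 in db/+ libraries, -0.17, -0.34 and -0.14 in untreated and -0.02, -0.23 and -0.32 in treated db/db libraries. Every db/db library thus had a lower ratio than every db/+ library. Bak1 to Mcl1 averaged -2.50 ± 0.047 (SD, n = 3) in db/+, -3.09 ± 0.12 in untreated and -3.27 ± 0.17 in treated db/db islets, again without overlap between db/+ and db/db. Bbc3 to Bcl2l1 averaged -0.65 ± 0.28, -1.41 ± 0.11 and -1.121 ± 0.081 in the same order. Bcl2l11 to Mcl1 was ordered the other way, from -2.41 ± 0.013 in db/+ to -2.20 ± 0.066 and -2.11 ± 0.15, but with the rows of each gene added up it was 0.0157, -0.0066 and 0.1079, which puts untreated db/db below db/+ islets. Bax to Bcl2 was 4.26 to 4.45 in db/+ libraries, 1.85, 3.42 and 3.59 in untreated and 3.64 to 4.33 in treated ones, with the low value in untreated replicate 1. Counts of different genes depend on transcript length, so the sign of a ratio carries no meaning and only libraries can be compared with each other. The coverage difference between db/+ and db/db libraries need not cancel in a ratio, and its part in these values was not tested.

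**Figure D4:**
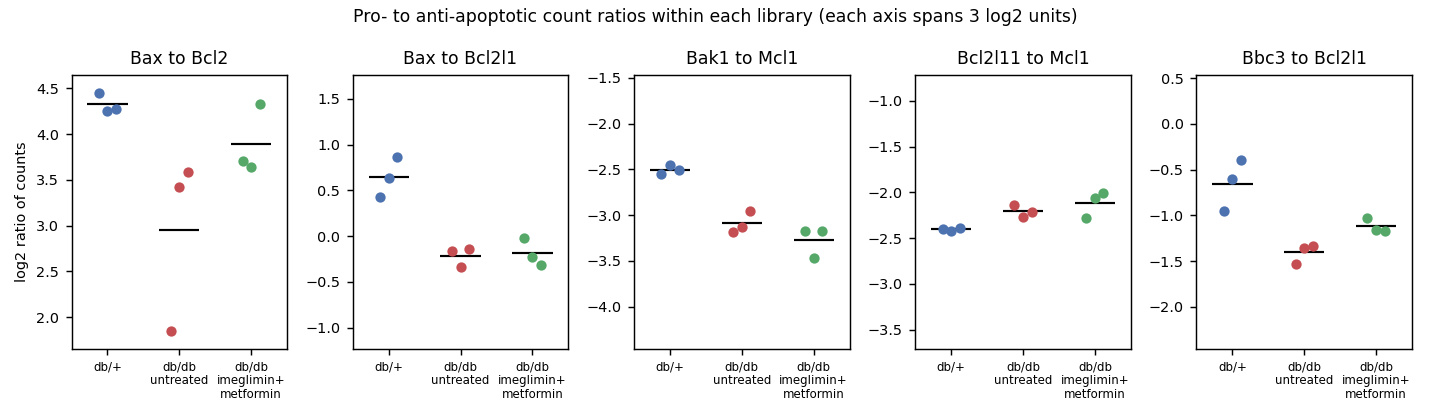
Log2 ratio of counts (y axes, each spanning 3 log2 units) of a pro-apoptotic to an anti-apoptotic member in each library; points are libraries and bars group means of 3. Bax to Bcl2l1, Bak1 to Mcl1 and Bbc3 to Bcl2l1 are lower in all 6 db/db libraries than in any db/+ library, and Bcl2l11 to Mcl1 is higher, an order that turns for untreated db/db islets when rows of a gene are added up.

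Scaled by the length of the row used, as CPM per kilobase, Bax was the most abundant member in db/+ islets at 84.8 ± 6.3 (SD, n = 3), followed by Mcl1 at 38.2 ± 2.2. Bbc3 (13.2 ± 1.3), Bad (12 ± 1.26), Bak1 (11.6 ± 0.55) and Bcl2l1 (11.5 ± 1.2) came next and did not differ beyond their spread from 1 neighbour to the next. Bid stood at 6.22 ± 1.0, Bcl2l11 at 4.998 ± 0.28, Pmaip1 at 1.59 ± 0.32 and Bcl2 last at 0.541 ± 0.063 CPM per kilobase. In untreated db/db islets Bax (47.7 ± 7.2) and Mcl1 (40.6 ± 7.2) overlapped in their spread. Bcl2 remained lowest there, at 0.904 ± 0.62, and in treated islets, at 0.385 ± 0.10. These levels assume even coverage, which differed between db/+ and db/db libraries, and they depend on the row. With the shortest row that held at least 95% of the highest row's total, a choice made after seeing the data, Bcl2l1 stood at 20.4 ± 2.2, Bbc3 at 19.4 ± 1.9, Bad at 18.3 ± 1.98 and Bak1 at 11.7 ± 0.55 CPM per kilobase in db/+ islets, so the order of these 4 is not settled. Bax (89.3 ± 6.6) and Mcl1 (38.2 ± 2.2) remained the highest and Bcl2 the lowest.

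The members whose course over the 9 libraries lay closest to another gene of the pathway, by the root mean square difference of centred log2 CPM among 76 candidates, were Bcl2l1, Bad and Mcl1. Bcl2l1 was nearest to the kinase gene Akt1, at 0.078, Bad to Bcl2l1, at 0.092, and Mcl1 and Bcl2l11 to each other, at 0.14. These genes varied little, with an SD of their own of 0.12 for Bcl2l1 and 0.20 for Mcl1 on the same scale, which makes small distances easy to reach. Mcl1 and Bcl2l11 shared their highest value in untreated replicate 1.

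In the wider family genes were called in both directions. Over all 67 pathway genes tested, of which the wider family is a part, 21 were called higher and 19 lower in untreated db/db against db/+ islets. That is near the shares of all genes, with which the family lists alone were not compared. Of all genes, 31.3% were called higher and 32.0% lower in untreated db/db against db/+ islets. Bcl2l2, the guardian Bcl-w, was at 231 ± 36.7 CPM (SD, n = 3) in db/+, 95.7 ± 2.98 in untreated and 81.5 ± 13.1 in treated db/db islets. It fell by 1.27 in untreated (adjusted p = 5.81e-06) and fell by 1.504 in treated islets (adjusted p = 1.23e-06), the only one called of the 4 other guardians tested, with the near-identical Bcl2a1a, Bcl2a1b and Bcl2a1d uncertain because reads can be shared. Of 6 other BH3-only genes, 3 rose and 1 fell in untreated db/db islets. Bmf, released from the cytoskeleton under stress, rose by 1.14, the neuronal Hrk by 1.03 and the mitophagy receptor Bnip3 by 0.74 (adjusted p = 0.000363, 0.0216 and 0.0304). The level of Hrk was low, at 0.80 ± 0.25 CPM in db/+ and 1.64 ± 0.16 in untreated db/db islets. Bik fell by 1.117 (adjusted p = 0.00193). Among the further multidomain genes, Bcl2l14 rose by 2.31 (adjusted p = 5.02e-05) and the mitophagy receptor Bcl2l13 by 0.74 (adjusted p = 0.000342) of 3 tested. Bcl2l13 overlaps Bid on the opposite strand, so reads where they overlap cannot be told apart without the strand setting.

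Downstream of the mitochondrial pore, 2 of 9 apoptosome and caspase genes rose in untreated db/db islets and 1 fell, where 31.3% of all genes were called higher and 32.0% lower. Cycs, which encodes the released cytochrome c, rose by 0.78 (adjusted p = 0.000272) and the executioner Casp6 by 0.83 (adjusted p = 0.00602), while Casp2 fell by 0.47 (adjusted p = 0.00569). Of 6 caspase inhibitors and their antagonists, Xiap, which blocks caspases directly, rose by 0.51 (adjusted p = 0.000974). Birc2 fell by 0.63, and the Xiap antagonists Diablo and Htra2 fell by 0.53 and 0.60 (adjusted p from 0.000237 to 0.000436). Endog, a mitochondrial nuclease, went from 33.3 ± 1.86 to 10.5 ± 2.18 CPM (log2 difference -1.66, adjusted p = 1.5e-06), and Tmbim6, known as Bax inhibitor 1, rose by 0.72 (adjusted p = 0.000399). In all, 2 of the 6 mitochondrial partners rose and 4 fell. Of 7 death receptor genes 3 fell, with log2 differences of -1.0028 for the adaptor Tradd, -0.53 for the receptor Tnfrsf10b and -0.27 for the caspase 8 regulator Cflar (adjusted p = 5.24e-05, 0.0218 and 0.0366), and 4 were not called.

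Bax and Bbc3, which fell, and Pmaip1, which rose in untreated db/db islets, are textbook p53 targets. Of 14 genes listed as p53 and its other targets, 8 rose and 3 fell in untreated db/db islets, with a list median of 0.74 against 0.02 over all genes. Of all genes, 31.3% were called higher and 32.0% lower in this comparison, and the list's difference from those shares was not tested. Eda2r, a receptor of the TNF receptor family, rose by 2.97, Ccng1 by 1.31, Sesn2 by 1.29 and Btg2, which restrains cell division, by 1.15 (adjusted p from 2.83e-06 to 9.08e-06). The level of Eda2r was low, at 0.53 ± 0.20 CPM in db/+ and 4.23 ± 0.41 in untreated db/db islets (SD, n = 3). Trp53 itself, which encodes p53, fell from 66.1 ± 6.24 to 46.6 ± 4.97 CPM (log2 difference -0.50, adjusted p = 0.0027), and Cdkn1a, the cell cycle inhibitor p21, differed by -0.37 (adjusted p = 0.00706), both named after their values were seen. Of 12 regulators of BH3-only genes and of Bad, 3 rose and 3 fell. Ddit3, the stress factor CHOP that can induce Bbc3 and Bcl2l11, fell by 1.76 (adjusted p = 2.96e-07) and Foxo1 fell by 1.31 (adjusted p = 7.47e-07). Foxo3 rose by 0.96 (adjusted p = 2.52e-05) and Pim3, a kinase related to those that phosphorylate Bad, by 0.65 (adjusted p = 0.000234).

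Treated db/db islets, compared with the same db/+ libraries, had 22 pathway genes higher and 22 lower of 67 tested, against 21 and 19 in untreated ones. Both pairs of counts lie near the shares of all genes called, 32.8% higher and 32.5% lower with treatment and 31.3% and 32.0% without. Beside the genes above, the death receptor Fas (-1.74, adjusted p = 0.00199) and Bok (-0.58, adjusted p = 0.043) fell, and E2f1 rose by 1.31 (adjusted p = 0.000171; 1.06 in untreated islets, adjusted p = 0.000951). Between treated and untreated db/db islets edgeR called 0 of the 67, with 8 lower and 1 higher at an unadjusted p under 0.05. The share of all genes at that unadjusted threshold is not given here. DESeq2 called 1 lower, Bcl2a1b, and voom 0.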

How the data were processed

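Islet RNA was sequenced in 9 libraries, 3 each from db/+, untreated db/db and imeglimin and metformin-treated db/db mice, grouped by the sample titles. The kit keeps strand, per the labels' protocols. The submitters' processing notes list HISAT2 2.2.1, cutadapt 1.9.1, featureCounts 2.0.0 and GRCm39; no source used here gives the strand setting or the rule for multiply aligned reads. The authors deposited whole-number counts for each of 139023 RefSeq transcripts, with transcript length, per the file headers. Reads lying in several transcripts of a gene appear in each of their rows, so the row with the highest total was used per gene.

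Tests used edgeR 4.0.16 under R 4.3.3 (filterByExpr by group, TMM, robust quasi-likelihood F-test, 3 group means on 9 libraries, no covariate), with 16761 genes passing the filter and 29555 left out by it. The test was checked on simulated data. Alternatives used limma 3.58.1 voom and DESeq2 1.42.0; tables and figures were made with Python 3.11.15, pandas 2.3.3 and matplotlib 3.10.9. Intervals are 95% from the edgeR fit. For the coverage comparison, a row was said to lack the last exon when under 20% of that exon, in GENCODE M21 (GRCm38), lay in it, with the gene's highest row at 900 counts or more and the partial row at 5% to 70% of it. Promoter windows are RefSeq's on GRCm38.p6, found for 9 of the 10 members. Bak1, Bad, Bid and Bcl2 overlap a gene on the opposite strand, and on the same strand Bax overlaps Gm45808, Bid Gm44260, and Bcl2 Gm37053 and Mir3473f, so their counts can hold reads of another gene.

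The members and lists were chosen with earlier results of these data known. Named genes were all members, up to 4 called genes of each pathway list with the smallest adjusted p, and the 3 closest members by likeness. Equal replicate numbers do not pair the samples. A gene of the pathway lists that the rule names is not reported here.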

Additional observations from a re-analysis of the deposited data

How the results depend on the processing

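Across 18 alternatives to the 30 member fold changes, the calls of Bax, Bbc3 and, in treated islets, Bak1 and Bid against db/+ held under every one. In untreated db/db against db/+ islets, members called higher numbered 2 with upper-quartile factors and 2 with no filter on low counts (Bcl2l11 added), and 3 when each gene was its row with the lowest total, an alternative chosen after seeing the data; leaving out 1 library gave 0 to 3 higher and 2 to 4 lower. Members called lower in treated against untreated islets numbered 1 by DESeq2 and 1 with no filter (Bid), and 0 to 2 when 1 library was left out. With the lowest row, 2 members were called higher in treated against db/+ islets, and the differences of Bcl2l1 and Mcl1 turned to 1.17 and 0.52, Pmaip1 to -0.0933 and, in untreated islets, Bad to -0.0609 (for Bcl2l1 and Mcl1 these rows hold part of the gene's counts). Other turns of sign were of members near 0 that were not called: Bad in treated against db/+ islets with upper-quartile factors (0.0301) or no filter (0.0205), and, on leaving out 1 library, Bad (-0.1082 to 0.0835 in treated and -0.001 to 0.2293 in untreated against db/+, -0.171 to 0.0044 between db/db groups), Bcl2l1 (-0.0534 to 0.1999) and Mcl1 (-0.0505 to 0.2219) in untreated, and Pmaip1 (-0.1064 to 0.2167) in treated against db/+ islets. The cause was not tested. All ratios between members moved when rows of a gene were added up, since genes have 1 to 12 rows, and the order of the groups changed for Bcl2l11 to Mcl1 (0.0157, -0.0066 and 0.1079 in db/+, untreated and treated islets).

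With the replicate number as a block the members called were 1 higher and 3 lower, 0 and 0, and 0 and 4, as without it. The numbers gave no sign of pairing: deviations of same-numbered libraries correlated at -0.43 to 0.06 over 9 pairs, and 1 of 9 libraries correlated best with its own number. Over all genes the count called between treated and untreated islets was 30, but 116 with the block, 627 by DESeq2, 228 with no filter, 10 by voom, 9 with rows added up, 0 with only the 6 libraries compared, and 6 to 436 leaving out 1 library. Upper-quartile factors shifted all genes by a median of 0.11 in untreated against db/+ islets. Low counts of Pmaip1 and Bcl2 limit what can be told of them.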
